A study of Mus musculus with 4 samples.

Results

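The genes described here are 42 interferon-stimulated genes (ISGs), chosen by name as a list of genes that mouse cells are known to induce when interferon binds its receptor. The rule names no measured value, but the list was drawn up with earlier results of these data known. All 42 were found among the 41214 genes of the deposited count table, each by its Ensembl identifier and its GENCODE symbol, and all 42 were among the 14554 genes with enough counts to be tested. The samples were unstimulated B220+ splenocytes, a population enriched with beads against the B cell surface molecule B220. Libraries came from MIZ-1WT mice and from MIZ-1DPOZ mice, which carry the Miz-1 floxPOZ allele and MB1-Cre, with 2 libraries per genotype. MIZ-1 is a zinc finger transcription factor encoded by *Zbtb17*. The study describes its POZ domain as the part through which it forms homodimers and recruits coactivators. MB1-Cre is expressed from the *Cd79a* locus, so the deletion is made in B-lineage cells only, and any other cell in the preparation keeps the intact allele. All mouse lines were on a C57BL/6 background, and the animals of the study were from 40 to 70 days old. The study describes the 2 libraries per genotype as biological replicates. The labels do not tie the libraries to single animals, so the p-values measure the spread between these libraries.

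Type I interferons signal through a receptor made of IFNAR1 and IFNAR2, which activates the kinases JAK1 and TYK2. These phosphorylate STAT proteins, and a complex that holds STAT2 and IRF9 then binds the interferon-stimulated response element (ISRE) of its target genes. Interferon gamma uses another receptor, IFNGR1 and IFNGR2, and acts on genes through the gamma-activated sequence (GAS). The products of the target genes sense foreign nucleic acids, block translation or replication of viruses, or attack the vacuoles of intracellular microbes. B cells keep a low tonic level of many of them without infection.

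The ISRE is shown first because it is the element through which type I interferon acts on its target genes. It was searched as GAAANNGAAA on both strands, and the GAS as TTCNNNGAA, which reads the same on both strands, in RefSeq windows on GRCm38.p6 from 250 bases before to 50 bases after each transcription start. A window was found for 32 of the 42 genes, and 19 of these 32 (59.4%) held the ISRE core, against 1079 of 27025 genes with a window (3.99%). The GAS-type motif was present in 9 of the 32 (28.1%) and in 9.55% of all genes with a window. The ISRE core was found in 8 of the 13 genes with a window that were higher in MIZ-1DPOZ, in 10 of the 17 that passed in neither direction, and in 1 of the 2 that were lower. A match is a run of letters and was not tested for binding. The stretches below are each 30 bases long and written 5′ to 3′ on the strand of the gene, with the fixed bases of each ISRE core in capitals. They come from some of the genes that were higher in MIZ-1DPOZ, and from *Ifit1*, *Ifit3* and *Ifit3b*, which passed in neither direction.
*Ifih1*, chr2:62646206-62646235, minus strand: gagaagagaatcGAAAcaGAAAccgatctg
*Oas1a*, chr5:120907523-120907552, minus strand: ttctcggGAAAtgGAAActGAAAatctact
*Rsad2*, chr12:26456553-26456582, minus strand: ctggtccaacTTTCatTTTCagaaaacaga
*Gbp7*, chr3:142530273-142530302, plus strand: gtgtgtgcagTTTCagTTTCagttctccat
*Gbp2*, chr3:142620594-142620623, plus strand: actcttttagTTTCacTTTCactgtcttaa
*Eif2ak2*, chr17:78882535-78882564, minus strand: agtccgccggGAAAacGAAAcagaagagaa
*Isg15*, chr4:156200871-156200900, minus strand: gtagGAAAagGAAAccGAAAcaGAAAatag
*Ifit1*, chr19:34640784-34640813, plus strand: gTTTCacTTTCcagtctcagTTTCagTTTC
*Ifit3*, chr19:34583363-34583392, plus strand: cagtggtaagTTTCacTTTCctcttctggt
*Ifit3b*, chr19:34607759-34607788, plus strand: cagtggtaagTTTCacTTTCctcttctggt

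The core lay on either strand and mostly close to the start. Its first base was 53 bases upstream of the start in *Gbp7*, 59 in *Gbp2* and 120 in *Rsad2*, whereas in *Ifih1* and *Eif2ak2* it lay downstream of the start, beginning at transcript bases 33 and 19. *Isg15* held 3 overlapping cores beginning 78 bases upstream. In *Bst2* the GAS-type motif overlapped an ISRE core, which counted under both. The stretch of *Ifit3* and that of *Ifit3b* had the same letters, and these genes are close copies of each other. Reads without a unique alignment were counted on no gene, so the levels of both may be too low. The same may hold to some extent within the *Oas1*, *Gbp* and *Irgm* families. The window of *Gbp7* is shown whole, since it held a pair of GAS-type motifs next to 1 ISRE core and the gene had the smallest standard error among the 16 of the 42 genes that rose. It spans chr3:142530086-142530385 on the plus strand, and capitals mark the fixed bases of the GAS-type motifs, 106 and 87 bases upstream, and then of the ISRE core.
*Gbp7* window: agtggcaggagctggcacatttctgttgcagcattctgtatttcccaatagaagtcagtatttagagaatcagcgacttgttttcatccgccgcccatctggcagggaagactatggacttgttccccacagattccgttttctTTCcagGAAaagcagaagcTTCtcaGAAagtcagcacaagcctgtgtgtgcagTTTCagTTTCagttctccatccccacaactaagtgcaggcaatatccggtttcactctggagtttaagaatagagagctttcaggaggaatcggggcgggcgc

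**Figure D1:**
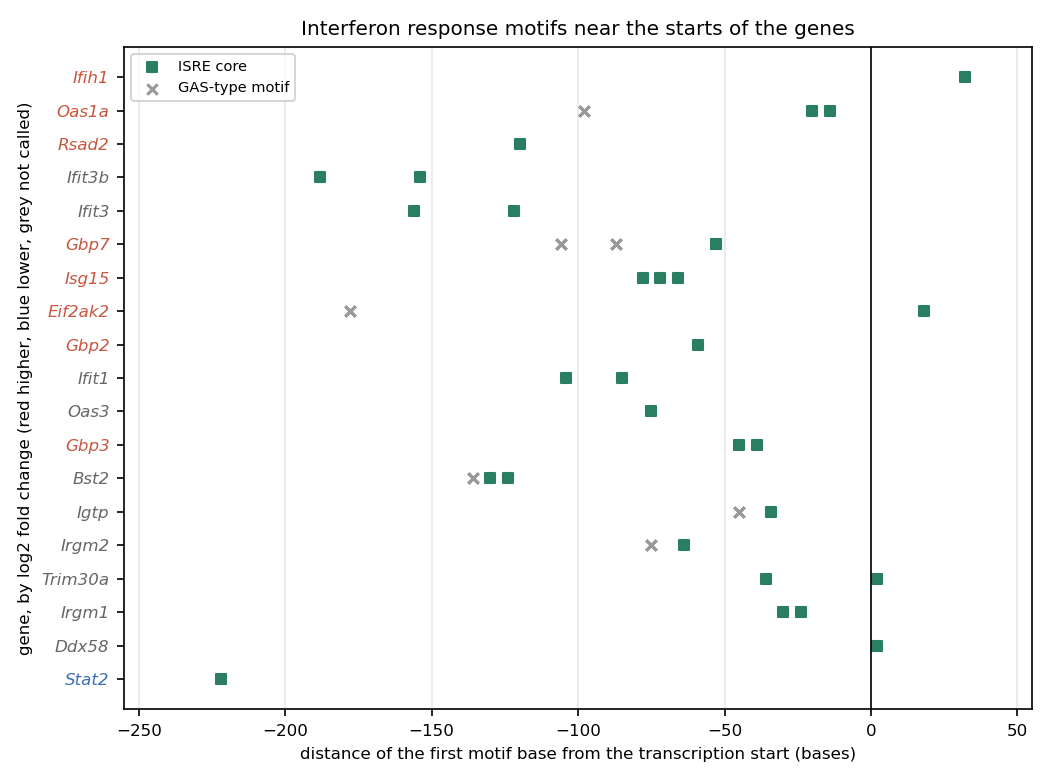
Distance in bases from the transcription start to the first base of each ISRE core (squares) and GAS-type motif (crosses) for the 19 genes with an ISRE core, ordered from the highest to the lowest log2 fold change. The cores of *Stat2* and *Ifit3b* and the first of *Ifit3* lie more than 130 bases upstream of the start, and no other core does.

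Across the list, more genes were higher in MIZ-1DPOZ than lower. An adjusted p under 0.05 was reached by 16 of the 42 genes in the upward direction (38.1%), where 21.1% of all tested genes were called higher, and by 3 in the downward direction (7.14%), where 18.9% of all tested genes were called lower. Their log2 fold changes, MIZ-1DPOZ over MIZ-1WT, had a median of 0.47, against -0.0064 over all tested genes, and 36 of 42 had a positive value. Both MIZ-1DPOZ libraries lay above both MIZ-1WT libraries in 28 of 42 genes (66.7%, all tested genes 37.2%) and below them in 4 (all tested genes 37.6%). With the fold limit used by the study, a size of 0.6 or more on the log2 scale, set here together with an unadjusted p under 0.05, 15 genes were higher and 1 was lower, with 15.0% and 5.30% of all tested genes past the same limits. The number of genes called higher rested on single libraries. It was 9 without MIZ-1WT replicate 2, 28 without MIZ-1DPOZ replicate 2, 16 without MIZ-1WT replicate 1 and 14 without MIZ-1DPOZ replicate 1, and the median went from 0.25 to 0.62. Of the 19 calls, 9 were made again whichever library was left out, 8 of them higher (*Ifih1*, *Dhx58*, *Eif2ak2*, *Oas1a*, *Rsad2*, *Gbp2*, *Gbp7* and *Ifi44*) and 1 lower (*Samd9l*).

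**Figure D2:**
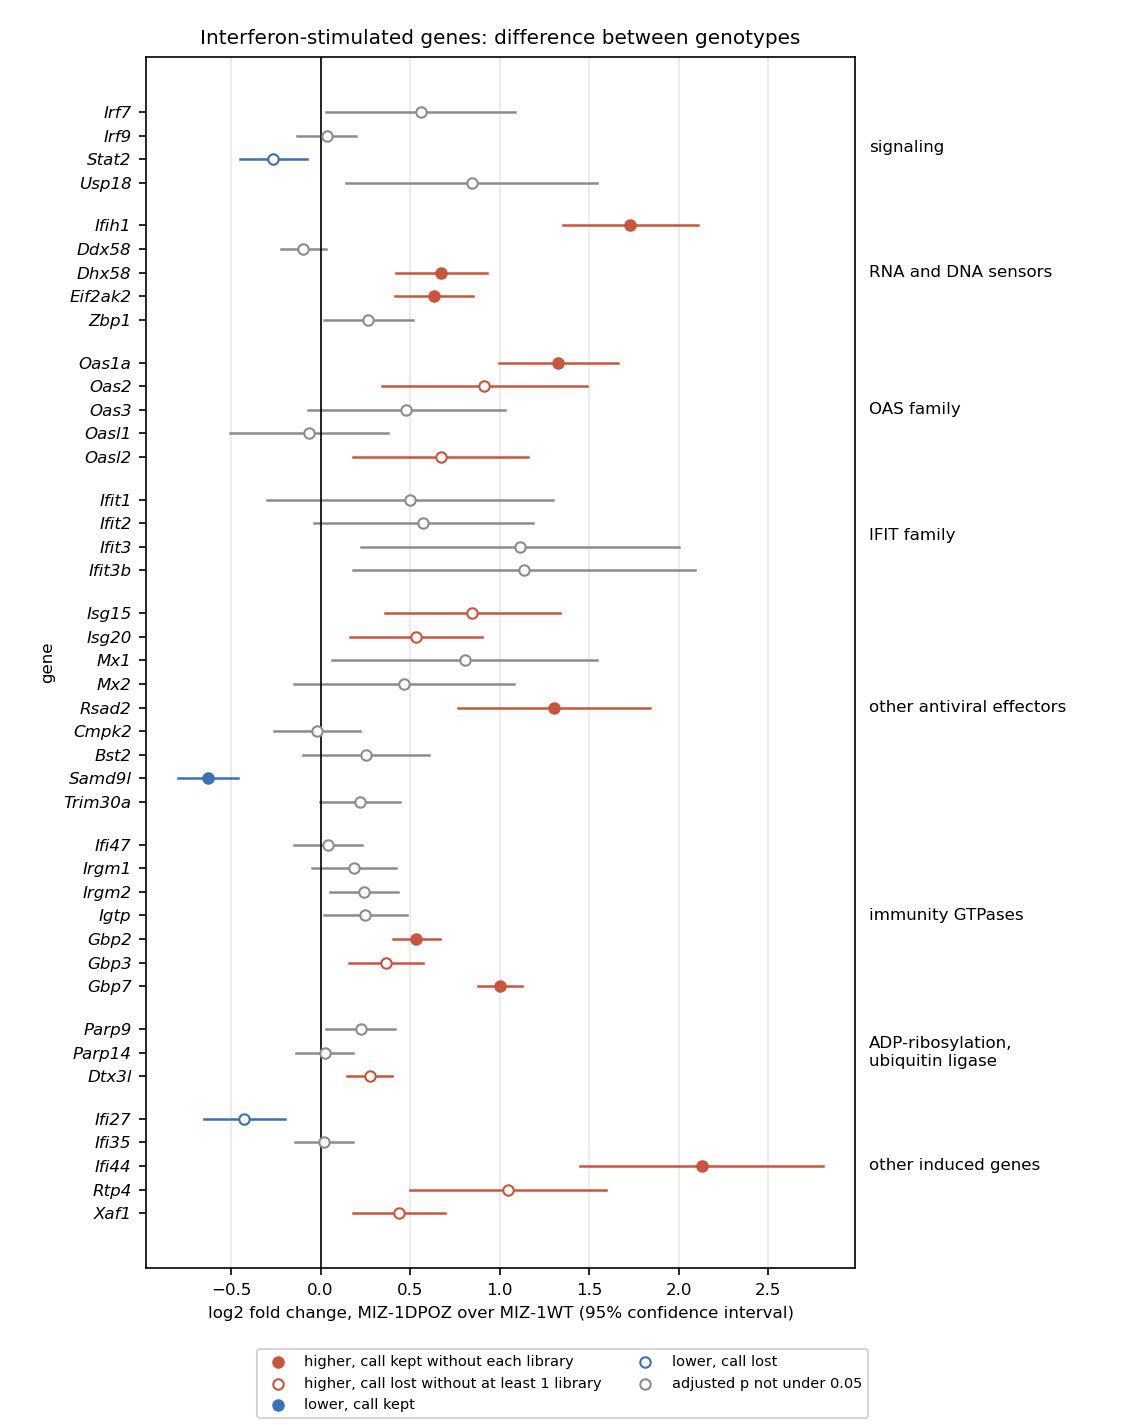
Log2 fold change (MIZ-1DPOZ over MIZ-1WT) with 95% confidence interval from edgeR for each of the 42 genes, by role. Filled points kept an adjusted p under 0.05 without each of the 4 libraries in turn, and the widest intervals are those of *Ifit3b*, *Ifit3* and *Ifit1*.

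Several measured features of the libraries moved with the genotype. All 16 red pulp macrophage markers were higher in MIZ-1DPOZ, with a summed level of 985 and 1310 CPM in MIZ-1WT and 5846 and 3662 in MIZ-1DPOZ, where CPM are counts brought to the same library size with TMM factors. Markers of monocytes (5 of 7 higher, summed 50.3 to 53.6 CPM in MIZ-1WT and 137 to 147 in MIZ-1DPOZ), conventional dendritic cells (5 of 8 higher and 1 lower, 99.9 to 114 and 281 to 378), marginal zone B cells (7 of 7 higher, 3092 to 3093 and 3911 to 4212) and plasma cells (5 of 6 higher, 879 to 1196 and 2540 to 2710) also differed. Pan-B cell markers were lower in 8 of 10, from 10606 to 10856 CPM in MIZ-1WT and from 8594 to 9060 in MIZ-1DPOZ. All 10 had a negative log2 fold change, with a median of -0.35. This list and its sum include *Cd79a*, the locus that carries MB1-Cre, and the part of that allele in the sum was not tested. Over all tested genes, 21.1% were called higher and 18.9% lower. Among 10 markers of plasmacytoid dendritic cells, which carry B220 and are known for making interferon, 2 were called higher and none lower. Of the 10, 4 had a positive and 6 a negative log2 fold change, with a median of -0.17. Their sums were 274 to 286 CPM in MIZ-1WT and 310 to 342 in MIZ-1DPOZ. The defining marker *Siglech* was at 45.0 and 45.5 CPM in MIZ-1WT and at 41.96 and 26.4 in MIZ-1DPOZ (adjusted p = 0.164, edgeR). No marker of these 6 lists or of the red pulp macrophage list was at 0 in all libraries. In the other marker lists, B-1 cells had 3 of 5 tested markers higher and follicular B cells 2 of 4 lower. T cells had 1 of 9 higher, NK cells 1 of 5, neutrophils 2 of 6 and erythroid cells 0 of 7, with 0 lower in each. The part of these cells in the differences of the ISGs was not tested, and in bulk RNA a change in the number of cells of a type and in the RNA per cell cannot be told apart. *Xist*, transcribed from the inactive X chromosome of females, was at 1.12 and 1.43 CPM in MIZ-1WT and at 801 and 930 in MIZ-1DPOZ, and 4 Y-linked genes showed the opposite, so the sex of the animals and the genotype cannot be told apart. *Zbtb17* itself had 47.8 and 46.3 CPM in MIZ-1WT and 37.3 and 38.0 in MIZ-1DPOZ, a log2 fold change of -0.32 ± 0.056 (SE, adjusted p = 0.00857, edgeR), although a deleted POZ domain need not lower the count of the gene.

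The list spanned a wide range of levels. Per kilobase of exon, *Samd9l* was the most abundant in MIZ-1WT at 307 CPM per kb, followed at a distance by *Trim30a* with 49.9, *Ifi35* with 47.6 and *Bst2* with 45.1. By counts, *Samd9l* had from 45498 to 72335 counts per library and *Ifi44* from 36 to 259, the fewest of the list, as the plot of levels by library shows.

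**Figure D3:**
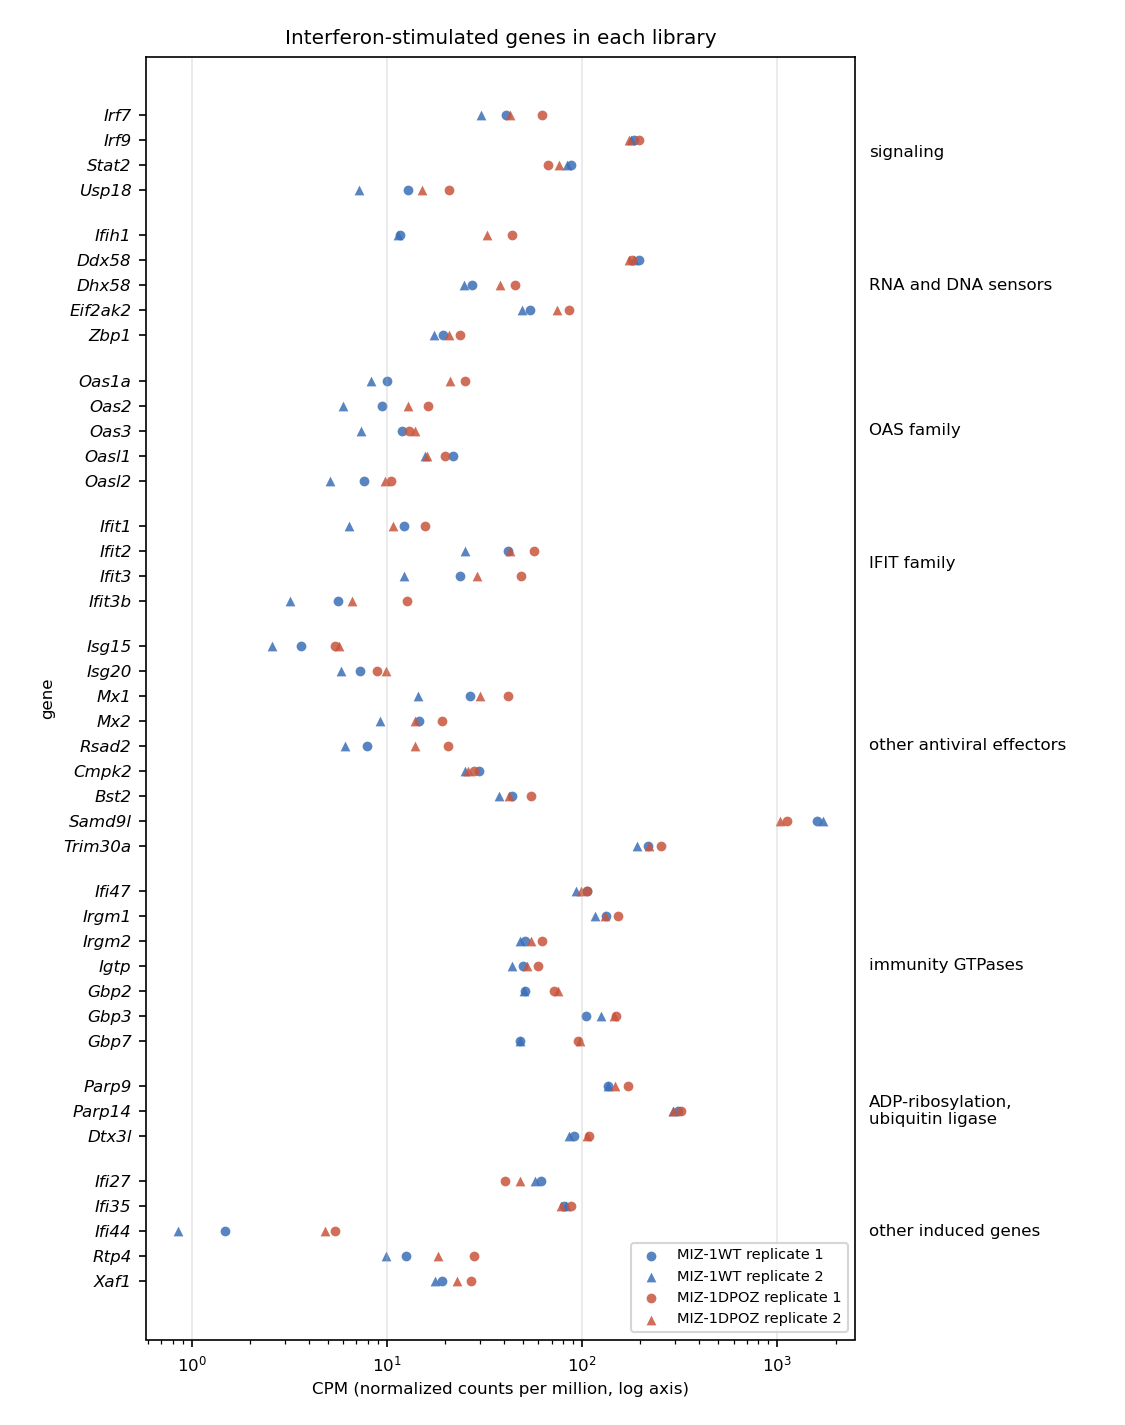
CPM (log axis) of each of the 42 genes in the 4 libraries, by role, with circles for replicate 1 and triangles for replicate 2. MIZ-1DPOZ libraries (red) lie to the right of MIZ-1WT libraries (blue) for *Ifih1*, *Oas1a*, *Gbp7* and *Ifi44*, and to the left for *Samd9l*.

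Of the 5 sensors of foreign nucleic acid, 3 rose in MIZ-1DPOZ (all tested genes 21.1%). *Ifih1* (ENSMUSG00000026896, chr2:62595798-62646255), which encodes the cytosolic sensor of long double-stranded RNA MDA5, had 11.7 and 11.5 CPM in MIZ-1WT and 44.2 and 32.5 in MIZ-1DPOZ. The MIZ-1WT libraries were almost equal and both MIZ-1DPOZ libraries lay far above them. The difference was 3.32-fold (log2 1.73 ± 0.15, SE, adjusted p = 0.00147, Benjamini-Hochberg adjusted over all tested genes in edgeR, as for all adjusted p-values here) and stayed between 1.49 and 1.94 on the log2 scale without each library in turn. *Dhx58* (chr11:100694884-100704271), whose product LGP2 is a regulator of MDA5 and RIG-I, had 27.2 and 24.9 CPM in MIZ-1WT and 45.3 and 37.9 in MIZ-1DPOZ, with a log2 fold change of 0.67 ± 0.10 (adjusted p = 0.00582). *Eif2ak2* (chr17:78852564-78882573) encodes PKR, the kinase that stops translation when it binds double-stranded RNA. It had 54.6 and 49.4 CPM in MIZ-1WT and 86.4 and 75.1 in MIZ-1DPOZ, a log2 fold change of 0.63 ± 0.088 (adjusted p = 0.0044). In none of these 3 genes did the genotypes overlap. Over all tested genes, both MIZ-1DPOZ libraries lay above both MIZ-1WT libraries in 37.2%. The RIG-I gene *Ddx58*, the sensor of short RNA with a 5′ triphosphate, was near 190 CPM in MIZ-1WT and 177 in MIZ-1DPOZ, with an interval of the log2 fold change from -0.22 to 0.028 (adjusted p = 0.177). *Zbp1*, a sensor of Z-form nucleic acid, had a log2 fold change of 0.27 ± 0.10 that missed the threshold (adjusted p = 0.083). The MDA5 and RIG-I genes, which encode related helicases, had intervals that did not overlap, from 1.35 to 2.11 and from -0.22 to 0.028.

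The 5 genes of the OAS family encode enzymes that make 2′-5′ oligoadenylates, the activator of RNase L, or relatives of these enzymes. Of these 5 genes, 3 rose (all tested genes 21.1%). *Oas1a* (ENSMUSG00000052776, chr5:120896256-120907521) had 10.1 and 8.33 CPM in MIZ-1WT and 25.2 and 21.1 in MIZ-1DPOZ, so that each MIZ-1DPOZ library was above both MIZ-1WT libraries. The log2 fold change was 1.33 ± 0.13 (2.51-fold, adjusted p = 0.00196), and its 2 ISRE cores are among the stretches shown above. *Oas2* had 9.42 and 5.97 CPM in MIZ-1WT and 16.2 and 12.9 in MIZ-1DPOZ (log2 0.92 ± 0.23, adjusted p = 0.0264). *Oasl2* had 7.61 and 5.12 CPM in MIZ-1WT and 10.5 and 9.78 in MIZ-1DPOZ (log2 0.67 ± 0.20, adjusted p = 0.0412). Both calls were lost without MIZ-1WT replicate 2 (adjusted p = 0.0821 for *Oas2* and 0.127 for *Oasl2*) and without MIZ-1DPOZ replicate 1 (0.0502 and 0.0747). *Oas3* gave 0.48 ± 0.22 (adjusted p = 0.137), and *Oasl1*, a negative regulator of *Irf7* translation, gave -0.063 ± 0.18 (adjusted p = 0.801), with a sign that changed without MIZ-1WT replicate 1 and without MIZ-1DPOZ replicate 2. In both genes the libraries of the MIZ-1WT genotype lay far apart, at 11.99 and 7.38 CPM for *Oas3* and at 21.9 and 15.8 for *Oasl1*.

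None of the 4 IFIT genes, whose products bind viral RNA and block its translation, passed the threshold, although their median log2 fold change was 0.85 and all 4 values were positive. *Ifit3* had 23.7 and 12.2 CPM in MIZ-1WT and 48.8 and 29.1 in MIZ-1DPOZ. The MIZ-1DPOZ libraries were the higher ones, but the distance between libraries of 1 genotype was about as large as that between the genotypes. The log2 fold change was 1.12 ± 0.36 with an adjusted p of 0.0541, and its near-identical copy *Ifit3b* gave 1.14 ± 0.39 (adjusted p = 0.0625). *Ifit2* had 41.7 and 25.2 CPM in MIZ-1WT and 56.6 and 43.0 in MIZ-1DPOZ (log2 0.57 ± 0.25, adjusted p = 0.116). In *Ifit1* the genotypes overlapped, with 12.3 and 6.42 CPM in MIZ-1WT and 15.7 and 10.8 in MIZ-1DPOZ (log2 0.50 ± 0.32, adjusted p = 0.264). Leaving out MIZ-1WT replicate 1, the higher of its pair, gave adjusted p-values of 0.0415 for *Ifit3* and 0.0356 for *Ifit2*, whereas leaving out MIZ-1WT replicate 2 gave 0.171 and 0.335.

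Among 9 other antiviral effectors, 3 rose and 1 fell (all tested genes 21.1% and 18.9%). *Rsad2* (ENSMUSG00000020641, chr12:26442746-26456452) encodes viperin, an enzyme that makes a chain-terminating nucleotide. It had 7.89 and 6.11 CPM in MIZ-1WT and 20.5 and 14.0 in MIZ-1DPOZ, with no overlap, and a log2 fold change of 1.30 ± 0.22 (2.47-fold, adjusted p = 0.00742). *Cmpk2*, the neighbouring gene on chromosome 12 that is often induced together with *Rsad2* and supplies nucleotides, had 29.6 and 25.2 CPM in MIZ-1WT and 28.1 and 26.0 in MIZ-1DPOZ, so the genotypes overlapped (log2 -0.019 ± 0.097, 95% interval -0.26 to 0.22, adjusted p = 0.89). *Isg15*, a ubiquitin-like modifier, was low at 3.62 and 2.57 CPM in MIZ-1WT and 5.46 and 5.70 in MIZ-1DPOZ, with a log2 fold change of 0.85 ± 0.20 (adjusted p = 0.0207, and 0.092 without MIZ-1WT replicate 2). *Isg20*, an exonuclease of single-stranded RNA, had 7.27 and 5.81 CPM in MIZ-1WT and 8.93 and 9.98 in MIZ-1DPOZ (log2 0.53 ± 0.15, adjusted p = 0.0358). Its call was lost without MIZ-1WT replicate 1 (adjusted p = 0.0609), MIZ-1WT replicate 2 (0.171) or MIZ-1DPOZ replicate 2 (0.0776). *Samd9l* (ENSMUSG00000047735, chr6:3372257-3399572), a growth-restraining and antiviral protein that shuts off translation, went the other way. It had 1616 and 1721 CPM in MIZ-1WT and 1123 and 1037 in MIZ-1DPOZ, and both MIZ-1DPOZ libraries were below both MIZ-1WT libraries. The log2 fold change was -0.63 ± 0.067 (adjusted p = 0.00222), with values from -0.69 to -0.56 without each library, and the promoter window of *Samd9l* held no ISRE core. The dynamin-like GTPase *Mx1* had 26.6 and 14.4 CPM in MIZ-1WT and 41.8 and 29.96 in MIZ-1DPOZ, with a log2 fold change of 0.80 ± 0.30 that missed the threshold (adjusted p = 0.0797). *Mx2*, annotated as a polymorphic pseudogene, the tethering factor *Bst2* and *Trim30a* gave values from 0.22 to 0.47, with adjusted p-values from 0.105 to 0.204.

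The 7 immunity GTPases, which coat and disrupt the vacuoles of microbes and are induced mainly by interferon gamma, all had positive values. The 3 guanylate-binding proteins rose (all tested genes 21.1%), while the 4 immunity-related GTPases did not pass the test. *Gbp7* (ENSMUSG00000040253, chr3:142530342-142550149) had 48.1 and 48.3 CPM in MIZ-1WT and 95.2 and 98.1 in MIZ-1DPOZ. The libraries of each genotype nearly coincided, and the genotypes were 2.00-fold apart (log2 1.00 ± 0.049, adjusted p = 0.000739, 0.99 to 1.03 without each library). *Gbp2* (chr3:142620602-142638008) had 51.1 and 50.5 CPM in MIZ-1WT and 71.8 and 75.4 in MIZ-1DPOZ (log2 0.53 ± 0.053, adjusted p = 0.00191). *Gbp3*, between them on chromosome 3, had 106 and 125 CPM in MIZ-1WT and 150 and 147 in MIZ-1DPOZ (log2 0.36 ± 0.084, adjusted p = 0.0199, and 0.0827 without MIZ-1WT replicate 1). These 3 genes showed no overlap of the genotypes (both MIZ-1DPOZ libraries above both MIZ-1WT libraries, all tested genes 37.2%). Among the immunity-related GTPases on chromosome 11, *Igtp* gave 0.25 ± 0.095 (adjusted p = 0.083), *Irgm2* 0.24 ± 0.077 (0.0522), *Irgm1* 0.19 ± 0.095 (0.169) and *Ifi47* 0.043 ± 0.077 (0.685). *Igtp* and *Irgm2* share 162 exon bases on the same strand, and *Ifi47* shares 111 with *Olfr56*, so their counts are not fully separate.

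Of the 4 genes that act in interferon signaling itself, none rose and *Stat2* fell (all tested genes 21.1% and 18.9%). *Stat2* had 88.6 and 84.2 CPM in MIZ-1WT and 67.2 and 76.7 in MIZ-1DPOZ, below both MIZ-1WT values (log2 -0.26 ± 0.076, adjusted p = 0.0387). Its call was lost without MIZ-1WT replicate 1 (adjusted p = 0.195), without MIZ-1WT replicate 2 (0.108) and without MIZ-1DPOZ replicate 1 (0.0701). *Irf9*, the DNA-binding partner of STAT2, had 186 and 179 CPM in MIZ-1WT and 198 and 176 in MIZ-1DPOZ, with an interval of the log2 fold change from -0.13 to 0.20 (adjusted p = 0.72). *Irf7*, the factor that amplifies interferon production, had 41.0 and 30.6 CPM in MIZ-1WT and 62.8 and 42.7 in MIZ-1DPOZ (log2 0.56 ± 0.21, adjusted p = 0.0851). *Usp18*, which removes ISG15 and damps receptor signaling, had 12.8 and 7.23 CPM in MIZ-1WT and 20.8 and 15.2 in MIZ-1DPOZ (log2 0.84 ± 0.28, adjusted p = 0.0608). In both genes the MIZ-1DPOZ libraries were the higher ones, and in both the result turned on single libraries. For *Irf7* the log2 fold change ran from 0.25 to 0.82 without each library in turn, with an adjusted p of 0.00636 without MIZ-1DPOZ replicate 2 and of 0.314 without MIZ-1WT replicate 2. For *Usp18* it ran from 0.49 to 1.31, with an adjusted p of 0.0201 without MIZ-1DPOZ replicate 2, 0.0323 without MIZ-1WT replicate 1, 0.139 without MIZ-1DPOZ replicate 1 and 0.172 without MIZ-1WT replicate 2.

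The remaining members act in ADP-ribosylation and ubiquitin transfer or have less well defined roles. *Ifi44* (ENSMUSG00000028037, chr3:151730922-151749960), which encodes a cytosolic protein linked to slower cell growth, had the largest fold change of the list. It stood at 1.49 and 0.857 CPM in MIZ-1WT and at 5.44 and 4.85 in MIZ-1DPOZ, a 4.37-fold difference without overlap (log2 2.13 ± 0.27, adjusted p = 0.00354). *Rtp4*, a chaperone of membrane receptors, had 12.6 and 9.90 CPM in MIZ-1WT and 28.0 and 18.4 in MIZ-1DPOZ (log2 1.05 ± 0.22, adjusted p = 0.0154). *Xaf1*, an antagonist of the apoptosis inhibitor XIAP, had 19.2 and 17.7 CPM in MIZ-1WT and 27.0 and 22.9 in MIZ-1DPOZ (log2 0.44 ± 0.10, adjusted p = 0.0219). Without MIZ-1WT replicate 1 or 2 the adjusted p was 0.052 and 0.0858 for *Rtp4* and 0.0786 and 0.12 for *Xaf1*. *Ifi27* fell, from 61.6 and 57.5 CPM in MIZ-1WT to 40.6 and 48.0 in MIZ-1DPOZ (log2 -0.43 ± 0.092, adjusted p = 0.0163), and this call was lost without MIZ-1WT replicate 1 (0.0996) or MIZ-1WT replicate 2 (0.0553). *Ifi35* gave 0.019 ± 0.066 (adjusted p = 0.84). *Dtx3l*, a ubiquitin ligase, rose slightly, from 91.7 and 86.4 CPM to 108 and 107 (log2 0.27 ± 0.051, adjusted p = 0.0104, 0.0544 without MIZ-1WT replicate 1 and 0.0891 without MIZ-1WT replicate 2). Its partner *Parp9*, transcribed from the other strand with 458 shared exon bases, gave 0.22 ± 0.078 (adjusted p = 0.0666), and *Parp14* gave 0.024 ± 0.064 (adjusted p = 0.79).

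The members also varied together between the libraries of 1 genotype. In MIZ-1WT, replicate 1 was above replicate 2 in 38 of 42 members, with a median difference of 0.19 on the log2 scale, and in MIZ-1DPOZ replicate 1 was above replicate 2 in 35 of 42, with a median of 0.20. Over all tested genes the shares were 49.0% and 49.5%. The spread was widest in the IFIT family, with medians of 0.88 in MIZ-1WT and 0.64 in MIZ-1DPOZ, and in *Ifit3* (0.95 and 0.74). It was small in *Gbp7* (-0.0054 and -0.043), in *Gbp2* and, within MIZ-1WT, in *Ifih1* (0.022). The red pulp macrophage markers had this order in MIZ-1DPOZ but the reverse in MIZ-1WT. In MIZ-1WT, replicate 1 was below replicate 2 in 16 of 16 of them, with a median of -0.38, and in MIZ-1DPOZ it was above in 16 of 16, with a median of 0.68. The plasmacytoid dendritic cell markers were above in replicate 1 in 8 of 10 in either genotype, with medians of 0.11 and 0.46. The part of either cell type in the order of the members was not tested.

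**Figure D4:**
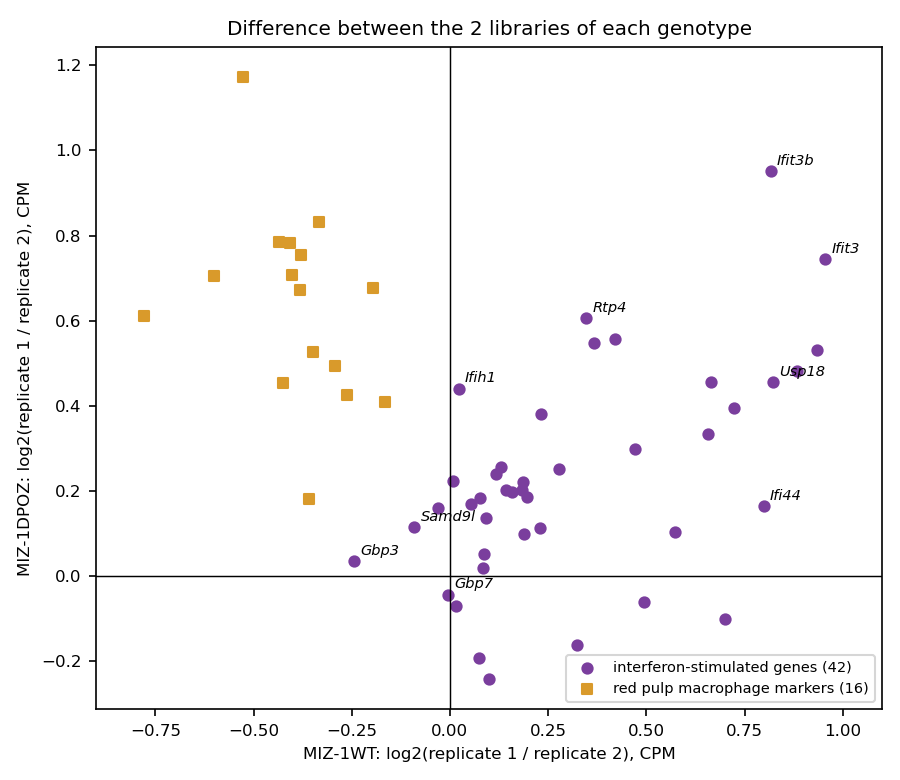
Log2 ratio of replicate 1 to replicate 2 in MIZ-1WT (horizontal) and in MIZ-1DPOZ (vertical) for the 42 ISGs (circles) and the 16 red pulp macrophage markers (squares). Most ISGs lie above 0 on both axes, and all macrophage markers lie below 0 in MIZ-1WT and above 0 in MIZ-1DPOZ.

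The genes upstream of the list were read from ligand to transcription factor. RNA of the ligands was at or near the limit of detection. Of 18 type I interferon genes, 14 were at 0 in every library, and the other 4 had at most 3 counts in any library, with totals of 3 and 2 counts in MIZ-1WT and 3 and 0 in MIZ-1DPOZ, which is at the limit of 3 counts that a count of 0 allows. Both type III genes were at 0. *Ifng* had 0.459 and 0.381 CPM in MIZ-1WT and 0.357 and 0.365 in MIZ-1DPOZ, and gave a log2 fold change of -0.22 ± 0.33 (adjusted p = 0.633). Among 6 receptor genes, 2 rose and 3 fell (all tested genes 21.1% and 18.9%). *Ifnar1*, a subunit of the type I receptor, had 207 and 211 CPM in MIZ-1WT and 140 and 142 in MIZ-1DPOZ, so it fell by 0.57 on the log2 scale (SE 0.043, adjusted p = 0.00108). Its partner *Ifnar2* went from 59.8 and 59.6 CPM to 71.7 and 67.4 (log2 0.22 ± 0.055, adjusted p = 0.0256). The subunits of the interferon gamma receptor were also split, with *Ifngr1* at 134 and 150 CPM in MIZ-1WT and 215 and 187 in MIZ-1DPOZ (log2 0.50 ± 0.087, adjusted p = 0.00828) and *Ifngr2* at -0.19 ± 0.051 (adjusted p = 0.0295). *Il10rb*, shared by the type III receptor, fell (-0.20 ± 0.048, adjusted p = 0.0217), and *Ifnlr1* gave -0.45 ± 0.36 (adjusted p = 0.365). Without 1 library, only the fall of *Ifnar1* passed the test in each of the 4 fits, and the other receptor calls were lost in from 1 to 3 of them.

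The 3 receptor kinases did not pass the threshold. *Jak1* gave a log2 fold change of -0.077 ± 0.067 (adjusted p = 0.4), *Jak2* -0.18 ± 0.058 (0.0511) and *Tyk2* 0.12 ± 0.044 (0.0714). Of 7 genes of the IRF group outside the list, 5 fell (all tested genes 18.9%). *Irf2*, a repressor at ISRE sites, had 29.9 and 26.8 CPM in MIZ-1WT and 14.4 and 21.6 in MIZ-1DPOZ (log2 -0.65 ± 0.19, adjusted p = 0.0389). *Irf3*, the factor activated by the sensors, was at -0.25 ± 0.042 (adjusted p = 0.0075), *Irf1* at -0.19 ± 0.053 (0.037), *Irf5* at -0.20 ± 0.046 (0.0209) and *Irf8* at -0.19 ± 0.048 (0.0254), while *Irf2bp1* (-0.23) and *Irf2bp2* (0.12) did not pass. Each of these 5 calls was lost in 2 or 3 of the 4 fits without a library. Genes that restrain the pathway were split, 3 higher and 3 lower of 8 tested (all tested genes 21.1% and 18.9%). *Socs1* (log2 0.71 ± 0.19, adjusted p = 0.0312) and *Socs3* (0.91 ± 0.19, 0.0143), inhibitors of JAK kinases that cytokines induce, were higher, as was the phosphatase *Ptpn1* (0.39 ± 0.093, 0.0225). These 3 calls were lost without MIZ-1WT replicate 1 (adjusted p = 0.0664, 0.0908 and 0.0906), and that of *Socs1* also without MIZ-1WT replicate 2 (0.154) and MIZ-1DPOZ replicate 1 (0.0947). The phosphatase *Ptpn6*, abundant in B cells, went from 1317 and 1310 CPM to 939 and 943 (-0.48 ± 0.050, adjusted p = 0.00202), and *Samhd1*, a dNTP hydrolase, from 539 and 549 to 385 and 394 (-0.48 ± 0.046, adjusted p = 0.00175).

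Of 15 genes of nucleic acid sensing outside the list, 2 rose and 4 fell, near the shares of all tested genes (21.1% and 18.9%). *Tlr3*, the endosomal receptor for double-stranded RNA, had 9.72 and 9.95 CPM in MIZ-1WT and 26.7 and 31.0 in MIZ-1DPOZ (log2 1.55 ± 0.098, adjusted p = 0.000784). *Tlr7*, a receptor for single-stranded RNA encoded on the X chromosome, had 75.5 and 68.7 CPM in MIZ-1WT and 132 and 127 in MIZ-1DPOZ (log2 0.85 ± 0.061, adjusted p = 0.000999), and the libraries differed in *Xist* as given above. *Mavs*, the adaptor through which MDA5 and RIG-I signal, went the other way, from 68.9 and 54.1 CPM to 42.1 and 40.4 (-0.58 ± 0.12, adjusted p = 0.0134). *Traf3* (-0.40 ± 0.051, adjusted p = 0.00344), *Trim25* (-0.40 ± 0.069, 0.00875) and *Traf6* (-0.21 ± 0.060, 0.0352) also fell. Without MIZ-1WT replicate 1 the calls of *Trim25* (adjusted p = 0.0708) and *Traf6* (0.207) were lost, and that of *Traf6* was lost too without MIZ-1WT replicate 2 (0.0813) and without MIZ-1DPOZ replicate 1 (0.0979). In all, 7 of the 40 tested pathway genes were higher (17.5%) and 15 were lower (37.5%), with a median of -0.13, where 21.1% and 18.9% of all tested genes were called.

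**Figure D5:**
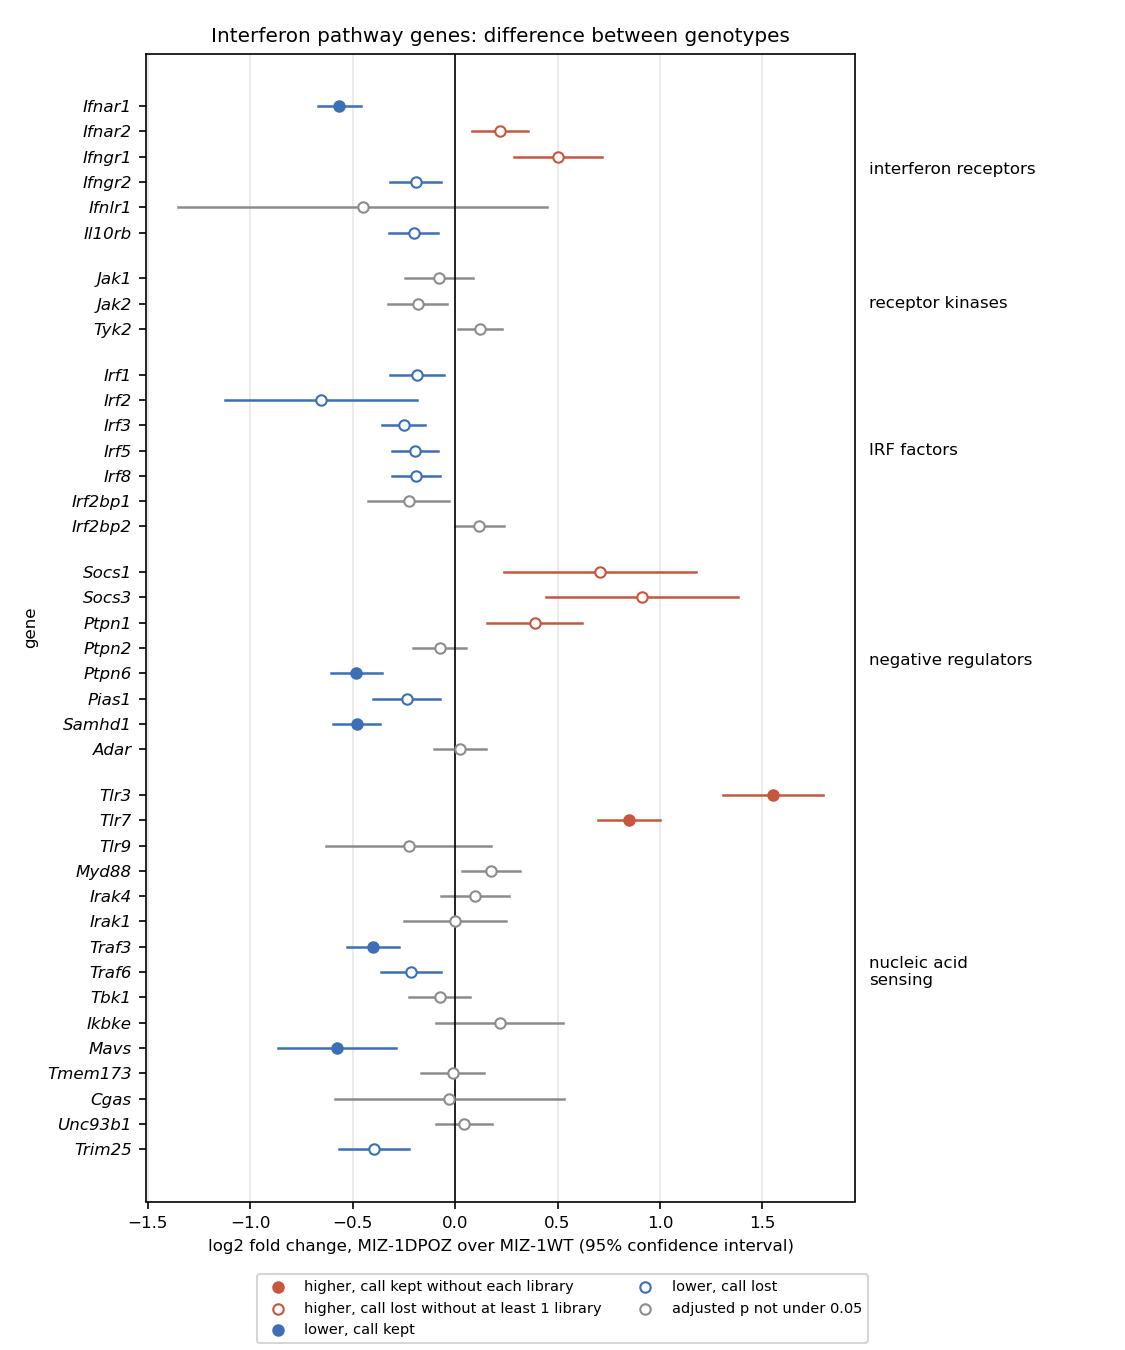
Log2 fold change (MIZ-1DPOZ over MIZ-1WT) with 95% confidence interval from edgeR for the tested interferon pathway genes, ligands aside, outside the list of 42, by role. *Ifnar1*, *Ptpn6*, *Samhd1*, *Traf3* and *Mavs* were lower and *Tlr3* and *Tlr7* higher without each library in turn (filled points).

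A further 53 tested genes that interferons are known to induce, not in the list of 42, had 21 higher (39.6%, all tested genes 21.1%) and 6 lower (11.3%, all tested genes 18.9%), with a median log2 fold change of 0.12. The higher ones reached larger values than those of the list of 42. *Siglec1*, the sialoadhesin CD169 of splenic macrophages, had 1.05 and 1.09 CPM in MIZ-1WT and 13.6 and 10.8 in MIZ-1DPOZ (log2 3.50 ± 0.18, adjusted p = 0.000739). *Oas1g* had 0.0688 and 0.19 CPM in MIZ-1WT, from 3 and 8 counts, and 2.27 and 1.69 in MIZ-1DPOZ (log2 3.92 ± 0.43, adjusted p = 0.00241). *Lgals3bp*, a secreted glycoprotein, rose from 11.6 and 11.2 CPM to 63.0 and 43.7 (log2 2.23 ± 0.18, adjusted p = 0.00121), and *Gbp8* from 19.6 and 18.6 to 57.1 and 43.6 (log2 1.40 ± 0.13, adjusted p = 0.00178). *Ly6a*, the surface antigen Sca-1, went from 147 and 136 CPM to 267 and 275 (log2 0.94 ± 0.054, adjusted p = 0.000754). The lower ones with the smallest p were *Trim12a* (-0.31), *Ms4a4c* (-0.41), *Sp100* (-0.26), *Pml* (-0.55) and *Trim34a* (-0.20), of which *Sp100* and *Pml* encode components of nuclear bodies. Their adjusted p-values ran from 0.00456 to 0.0212, but without MIZ-1WT replicate 1 they were 0.0895 for *Sp100*, 0.0949 for *Pml* and 0.0899 for *Trim34a*, and without MIZ-1WT replicate 2 they were 0.0566 for *Pml* and 0.15 for *Trim34a*. The red pulp macrophage markers, of which all 16 rose with log2 fold changes from 1.67 to 2.54, moved in the same direction as *Siglec1*, and their part in these values was not tested.

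The antigen presentation genes of MHC class I, which interferons also induce, were higher by smaller amounts. Of 20 tested genes of MHC class I, peptide loading and the immunoproteasome, 8 rose and 0 fell in edgeR's test, where 21.1% and 18.9% of all tested genes were called, and the median log2 fold change was 0.20. DESeq2's own test called 10 higher and 0 lower. At an unadjusted p under 0.05 in edgeR, 12 of the 20 passed (60.0%), none of them downward. Over all tested genes 50.2% passed, upward and downward counted together. That share is therefore no background for upward passes alone. *H2-T22* had 107 and 110 CPM in MIZ-1WT and 140 and 156 in MIZ-1DPOZ (log2 0.44 ± 0.063, adjusted p = 0.00461). *Nlrc5*, the transactivator of class I genes, had 178 and 180 CPM and 228 and 217 (log2 0.31 ± 0.046, adjusted p = 0.00528), *Erap1*, a peptide trimmer, had 0.30 ± 0.044 (0.00528), *Psme1* 0.29 ± 0.045 (0.00633) and the peptide transporter *Tap1* 0.25 ± 0.046 (0.0101). Both MIZ-1DPOZ libraries lay above both MIZ-1WT libraries in 18 of the 20 (all tested genes 37.2%). The number called was 1 without MIZ-1WT replicate 1 and 4 without MIZ-1WT replicate 2, with *H2-T22* passing in each fit.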

How the data were processed

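RNA-seq libraries of B220+ splenocytes were compared between genotypes as labelled. Reads had been ribosome-depleted, stranded and paired-end. The authors trimmed them with Trimmomatic, mapped them with TopHat2 to mm10 (GRCm38, with TopHat2 version 2.1.0 in the submitters' processing notes), counted them with HTSeq and deposited raw counts per Ensembl gene, neither normalized nor pooled. The strand setting and the Ensembl release were not given in the sources used here, so counts of genes that share exons with an antisense partner cannot be fully assigned.

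HTSeq's summary lines were left out. Among them, reads without a unique alignment made up 42.8% and 43.5% in MIZ-1WT and 43.6% and 44.1% in MIZ-1DPOZ. Reads that HTSeq assigned to no feature made up 27.2% and 25.5% in MIZ-1WT and 21.6% and 21.1% in MIZ-1DPOZ. This share thus also differed with the genotype, and its part in the results was not tested. Counts on genes ran from 43026814 to 46387209 per library, and intervals cover the spread between libraries. Testing used genes that reached 10 counts in 2 or more libraries, with edgeR version 4.0.16 in R version 4.3.3 (TMM, quasi-likelihood test, Benjamini-Hochberg over 14554 genes, threshold 0.05). Levels are TMM-normalized CPM. SE and intervals are on the log2 scale. Symbols, positions and exon overlaps came from GENCODE M21, promoter windows from RefSeq, of which 34 of 38 held a GENCODE transcript start on the same strand. The fit was tested on simulated data of the same comparison over 14341 genes, where 85.1% of 194 genes changed 2-fold were recovered with 6 false calls among 171. In the simulation the spread of a gene was set by its expression level alone and few genes changed. In the data 5822 of 14554 genes were called, so these rates need not hold there.

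The members and the other lists were chosen with earlier results of these data known, so no p was adjusted over a list. The text names all 42 members, every tested receptor, kinase and IRF gene of the pathway list (1 gene that meets the rule is not reported here), and in each other list the 5 genes with the smallest p per direction. *Socs1*, *Mavs*, *Trim25* and *Traf6*, the ligands and the marker *Siglech* were named after their values were seen. Alternatives were DESeq2 size factors, DESeq2's own test (version 1.42.0), no filter on low counts, a stricter filter of 100 counts in 2 libraries, a replicate block, removal of 257 immunoglobulin genes, the fold limit of the study with an unadjusted p, and leaving out each library, where the lone library of a genotype was assumed to vary like the other group.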

Additional observations from a re-analysis of the deposited data

How the results depend on the processing

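Of the 42 genes, 36 kept the direction of their difference under every alternative. The counts of calls among the 42 stayed within 1.5 times those reported, and their median within the spread between replicates, with DESeq2 size factors, DESeq2's own test, no filter, the stricter filter and the removal of immunoglobulin genes. Over all tested genes, same-numbered libraries did not deviate together (correlation of same-numbered deviations -0.0688). Among the 42, though, replicate 1 was above replicate 2 in 38 genes in MIZ-1WT and in 35 in MIZ-1DPOZ. A replicate block gave 25 of the 42 higher and 8 pathway genes lower. With the fold limit of the study and an unadjusted p under 0.05, 2960 of all genes were called, 1 of the 42 was lower, 4 pathway genes were higher and 1 lower, 0 other interferon-induced genes were lower and 0 MHC class I genes higher.

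Without each library in turn, calls over all genes ran from 2204 to 5739. Of the 42, from 9 to 28 were higher and from 1 to 3 lower, with medians from 0.25 to 0.62. Pathway genes ranged from 2 to 8 higher and from 5 to 16 lower, other interferon-induced genes from 12 to 21 higher and from 2 to 10 lower, and MHC class I genes from 1 to 11 higher. A lone library leaves fewer degrees of freedom. Genes near 0 changed sign: *Irf9* (-0.053 to 0.13), *Oasl1* (-0.28 to 0.19), *Cmpk2* (-0.13 to 0.10, and 0.0066 with the stricter filter), *Ifi47* (-0.049 to 0.14), *Parp14* (-0.044 to 0.10) and *Ifi35* (-0.061 to 0.11). The cause of these moves was not tested.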
